A study of Homo sapiens with 6 samples.

Results

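The annexins are proteins that bind acidic phospholipids of membranes when calcium rises. The 10 annexin genes ANXA1, ANXA2, ANXA3, ANXA4, ANXA5, ANXA6, ANXA7, ANXA9, ANXA10 and ANXA11 were taken by name from the 58174 genes of the expression table, after its Ensembl identifiers had been matched to symbols. All 10 were found. AGS, an established cell line from a human gastric adenocarcinoma, was compared with and without FTO depletion by sequencing of total RNA. The question was which transcripts differ when FTO, an eraser of the m6A mark on RNA, is depleted. The labels give 3 si-NC libraries, from cells given a negative control siRNA, and 3 si-FTO libraries, from cells given an siRNA against FTO. The same labels carry a genotype entry, with wild type on the si-NC libraries and FTO-/- on the others, but the study's methods describe transfection of siRNA duplexes with a lipid reagent, and the groups are named here by siRNA.

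Each annexin has a conserved core of repeats that holds the calcium sites, and an N-terminal region that differs between members and binds partner proteins such as S100 proteins. Through calcium the core docks on the inner face of the plasma membrane or on vesicles, where annexins take part in membrane repair, exocytosis, endocytosis and the anchoring of actin. In epithelia several members lie beneath the surface membrane, and ANXA10 is known from the lining of the stomach.

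The deposited values were TPM, a level per transcript length that allows genes to be compared with each other, given as the authors' mean of each group. With 1 mean per group there is no error between libraries, so no difference below was tested here. From the means alone none could be set against the spread of replicates. The p-values of the authors' own comparison were deposited but not used. Nothing in the labels says whether the libraries of a group came from separate cultures. TPM keeps no record of the reads, so the depth is unknown. Differences are given as the log2 ratio of mean TPM, si-FTO over si-NC, after 1 TPM was added to both means, which understates the change of low genes. Folds are plain ratios of the means, without the added 1 TPM. A gene was compared when its mean TPM reached 0.5 in at least 1 group, and was counted as higher or lower past the fold when this ratio was at least 1 or at most -1. A deposited value of 0.0001 TPM was read as 0, and such genes are called listed at 0.

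The depletion target, FTO, was at 33.1 TPM in si-NC and 7.27 TPM in the si-FTO mean, which is 4.56-fold lower, with a log2 ratio of -2.05. The label of the cells was checked against markers of epithelium and of other cell types. Of 10 epithelial markers 8 were compared, with 6 higher and 1 lower past the fold, beside 11.4% of all genes compared that were higher and 17% that were lower. KRT7, ELF3 and CLDN4 reached 0.5 TPM only in si-FTO, so these were bound to differ. The summed level of the 10 markers was 69.3 TPM in si-NC and 5355 TPM after FTO depletion. The most abundant was the keratin gene KRT18 in si-NC, at 52.1 TPM, and its partner KRT8 in si-FTO, at 3139 TPM. KRT7 and KRT19, which also encode keratins, were listed at 0 in si-NC and had 253 and 0.130 TPM in si-FTO. ELF3, which encodes an epithelial transcription factor, was at 0.115 TPM in si-NC and 93.3 TPM after FTO depletion. EPCAM and CDH1, which encode adhesion proteins that define epithelia, were low in both groups, at 1.22 and 3.67 TPM in si-NC and at 0.113 and 0.685 TPM in si-FTO. A level of at least 1 TPM was reached by 5 of the 10 markers in si-NC and by 6 in si-FTO. KRT7 and KRT19 in si-NC, and EPCAM, CDH1 and KRT19 in si-FTO, thus go against the label of an epithelial line.

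Markers of other cell types were lower in sum than the epithelial list. The 6 fibroblast markers summed to 16.0 TPM in si-NC and 45.5 TPM after FTO depletion, with COL1A1 the most abundant in both groups and COL1A2 listed at 0 in si-FTO. The 6 leukocyte markers summed to 2.52 and 6.95 TPM, with CD68 the most abundant, and PTPRC, the defining gene of leukocytes, was listed at 0 in both groups. Of 5 endothelial markers 4 were matched, and they summed to 0.420 TPM in si-NC and 41.0 TPM after FTO depletion. Nearly all of the latter was CDH5, at 40.9 TPM, while KDR was listed at 0. The part that these marker differences have in the annexin differences was not tested. With markers this far apart, it is uncertain whether the groups hold the same cells apart from FTO. From group means, FTO depletion and another difference between the cells under the si-NC and si-FTO labels cannot be told apart. The words after FTO depletion therefore name the si-FTO mean and no cause.

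Of the 10 annexins, 9 were compared, and 4 of these were higher in si-FTO past the fold, ANXA1, ANXA2, ANXA3 and ANXA4. None of the 9 was lower past the fold. That is 44.4% of the members compared, beside 11.4% of all 20493 genes compared that were higher and 17% that were lower. In si-FTO, ANXA1 was 58.2-fold, ANXA3 9.54-fold, ANXA2 7.25-fold and ANXA4 2.49-fold the level in si-NC. ANXA5, ANXA7, ANXA9 and ANXA11 had ratios above 0 within the fold, and ANXA6 was the only member compared with a ratio below 0. In bulk RNA a larger share of cells of a type and more RNA per cell cannot be told apart.

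**Figure D1:**
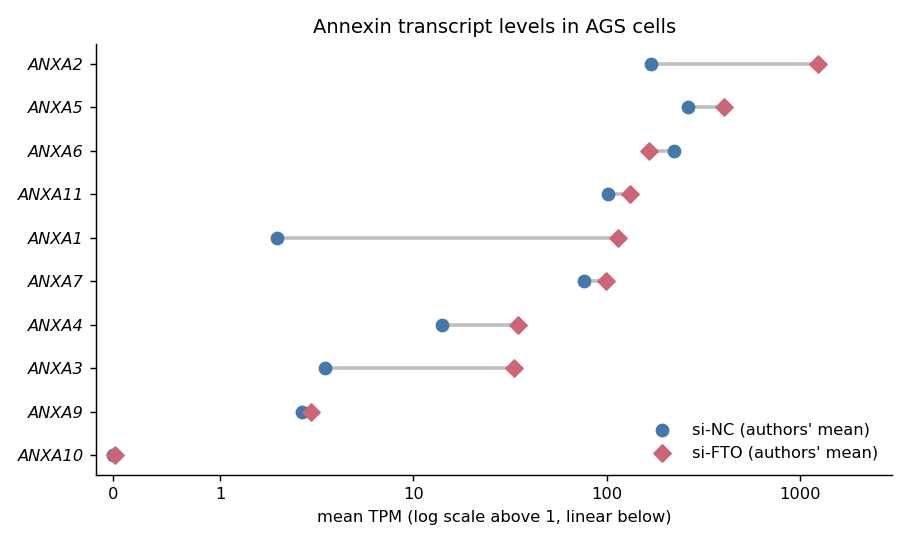
Mean TPM of each annexin in si-NC (blue circles) and si-FTO (red diamonds), 1 deposited mean per group with no error bar, on an axis that is logarithmic above 1 TPM and linear below. ANXA1 runs from 1.97 to 114 TPM and ANXA2 from 170 to 1235 TPM, while ANXA10 lies at or next to 0 in both groups.

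ANXA1 (ENSG00000135046, chr9:75766781-75785309, plus strand; positions of genes are on GRCh37) encodes annexin A1, a glucocorticoid-induced protein that restrains cytosolic phospholipase A2 and inflammation. Its mean was 1.97 TPM in si-NC and 114 TPM after FTO depletion, a log2 ratio of 5.28. It was the next to lowest annexin in si-NC and the 5th most abundant in si-FTO. Among all genes of the table its level ranked 14504 in si-NC and 1389 after FTO depletion. A smaller log2 ratio than that of ANXA1 was found for 99.5% of the genes compared.

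ANXA2 (ENSG00000182718, chr15:60639333-60695082, minus strand) encodes annexin A2, which joins a dimer of S100A10 at the plasma membrane, binds actin and serves as a docking site for plasminogen and its activator. Its mean was 170 TPM in si-NC and 1235 TPM after FTO depletion, a log2 ratio of 2.85. ANXA2 moved from the 3rd to the 1st place among the annexins by level, and from rank 813 to rank 104 among all genes. In TPM it had the largest difference of the 10 members, 1064 TPM.

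ANXA3 (ENSG00000138772, chr4:79472901-79531605, plus strand) encodes annexin A3, an abundant protein of neutrophil granules that is also made in epithelial tumours. Its mean was 3.49 TPM in si-NC and 33.2 TPM after FTO depletion, with a log2 ratio of 2.93, close to that of ANXA2 at levels far below it. The added 1 TPM lowers the ratio of ANXA3 more. With 0.1 TPM added instead, the log2 ratios were 3.22 for ANXA3 and 2.86 for ANXA2. ANXA4 (ENSG00000196975, chr2:69871557-70054244, plus strand) encodes annexin A4, which forms ordered arrays on membranes of secretory epithelia. Its mean was 14.0 TPM in si-NC and 34.8 TPM after FTO depletion, with a log2 ratio of 1.26, so it lay nearest to the fold among the 4. ANXA4 overlaps AAK1 on the opposite strand, which was at 24.9 TPM in si-NC and 11.7 TPM after FTO depletion. The libraries were stranded, but whether the counting used strand is not given in the sources used here, so the ANXA4 level is uncertain.

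ANXA5 (ENSG00000164111, chr4:122589101-122618150, minus strand) encodes annexin A5, whose binding to exposed phosphatidylserine is the usual stain for dying cells. It was the most abundant annexin in si-NC, at 264 TPM, and the next most abundant after ANXA2 in si-FTO, at 402 TPM, with a log2 ratio of 0.60. ANXA6 (ENSG00000197043, chr5:150480267-150537376, minus strand) encodes annexin A6, which carries a doubled core and is found on endosomes and the plasma membrane. Its mean was 224 TPM in si-NC and 166 TPM after FTO depletion, 1.35-fold lower in si-FTO, with a log2 ratio of -0.43. The ANXA6 level was 1.31 times that of ANXA2 in si-NC and 0.134 times in si-FTO.

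ANXA7 (ENSG00000138279, chr10:75134859-75173834, minus strand) and ANXA11 (ENSG00000122359, chr10:81910645-81965328, minus strand) encode the annexins with long N-terminal regions. Annexin A7 aggregates secretory granules, and annexin A11 tethers RNA granules to lysosomes. ANXA7 had 76.3 TPM in si-NC and 99.5 TPM after FTO depletion. ANXA11 had 101 TPM in si-NC and 132 TPM after FTO depletion. Their log2 ratios, 0.38 and 0.39, were alike and within the fold. With ANXA2, ANXA5 and ANXA6 they make up the 5 members above 50 TPM in both groups.

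ANXA9 (ENSG00000143412, chr1:150954725-150968110, plus strand) encodes an atypical annexin whose calcium sites are degenerate. Its mean was 2.66 TPM in si-NC and 2.96 TPM after FTO depletion, a log2 ratio of 0.11. ANXA10 (ENSG00000109511, chr4:169013688-169108887, plus strand), the annexin known from gastric mucosa, was listed at 0 in si-NC and had 0.0258 TPM in si-FTO, under the minimum for a comparison. No fold is given for it.

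**Figure D2:**
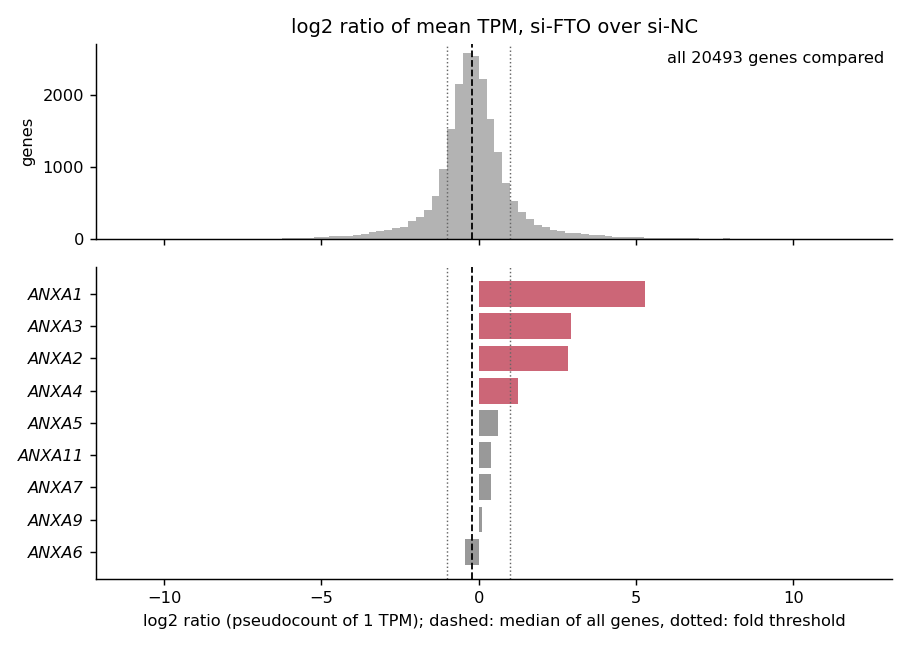
Log2 ratio of mean TPM, si-FTO over si-NC with 1 TPM added, as a histogram of all 20493 genes compared (top) and as bars for the 9 annexins compared (bottom). The bars of ANXA1, ANXA3, ANXA2 and ANXA4 pass the dotted line at 1, the median of all genes (dashed) lies at -0.20, and ANXA6 at -0.43 lies below that median.

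Over the 9 annexins compared, the median log2 ratio was 0.60, whereas over all genes compared it was -0.20, with quartiles of -0.74 and 0.38. Read against the median of all genes, 8 of the 9 lay above it and ANXA6 lay below it. Relative to that median, the log2 ratios were 5.49 for ANXA1, 3.13 for ANXA3, 3.05 for ANXA2, 1.46 for ANXA4 and -0.23 for ANXA6. Median-ratio scaling of the groups moved the median of all genes to -0.06, and quantile normalization moved it to -0.03. ANXA6 kept a ratio below 0 and the other 8 a ratio above 0 under each scaling. A count of members past a fold on group means describes these libraries and says nothing of their spread.

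The make-up of the annexin transcripts differed between the groups. The 10 means summed to 858 TPM in si-NC and 2219 TPM after FTO depletion, a ratio of 2.59. This was 0.0858% of all TPM in si-NC and 0.222% in si-FTO. ANXA2 alone made up 78.2% of the difference of 1362 TPM between the sums, and without it the ratio of the sums was 1.43. ANXA5, ANXA6 and ANXA2, in that order, were the 3 most abundant members in si-NC, with 30.8%, 26.1% and 19.8% of the sum. In si-FTO, ANXA2 held 55.6%, ANXA5 18.1% and ANXA6 7.47%. ANXA1 went from 0.229% to 5.16% of the sum, so that it stood above ANXA7, which held 8.90% and 4.48%. ANXA11 was the 4th member by level in both groups, and ANXA10 was the last in both. Which neighbours in these orders differ beyond the spread of libraries cannot be said from group means.

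**Figure D3:**
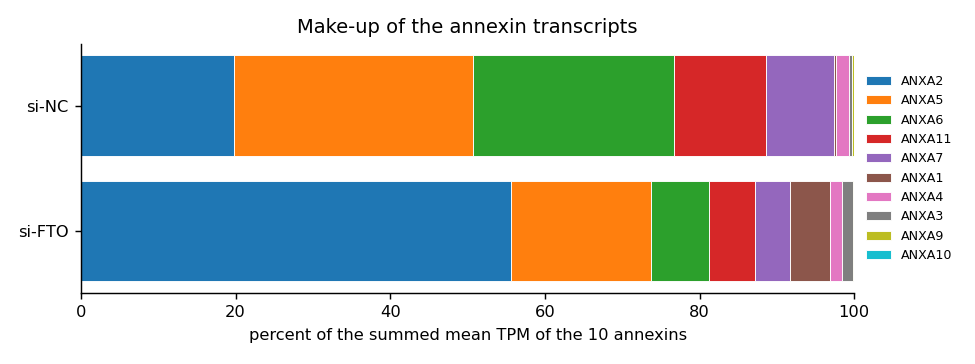
Share of each annexin, in percent, of the summed mean TPM of the 10 members in si-NC (top bar) and si-FTO (bottom bar). ANXA2 fills 19.8% of the si-NC bar and 55.6% of the si-FTO bar, ANXA6 goes from 26.1% to 7.47%, and ANXA9 and ANXA10 are too small to see.

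The calcium loops of the annexins can be read in their coding sequences, and they are shown because they define the family and set ANXA9 apart. A calcium site of an annexin repeat is a loop of glycine, any residue, glycine and threonine, followed after a spacer by an acidic residue. In the annotated canonical transcripts this was sought in frame as a codon GGN, any codon, GGN and ACN, followed after 38 further codons by a codon that begins with GA. In all, 25 such loops were found in 9 members. ANXA6, which has the longest coding sequence, 2019 bases in 26 exons, had 5 loops. ANXA3, ANXA4, ANXA5, ANXA7 and ANXA11 had 3 each, ANXA1 and ANXA2 had 2 each, ANXA10 had 1 and ANXA9 had 0. A further match of the loop codons in ANXA11 lacked the acidic codon. The shortest coding sequence was that of ANXA5, with 960 bases. The members past the fold and those within it both include genes with 3 loops, and the number of loops was not tested against the ratios. Below, 36 coding bases around 1 loop of each of the 9 genes are given on GRCh37, with the 12 bases of the loop in capitals. In each of the 9, an intron lies directly before the loop, after the 12 lower-case bases, so the coordinates span it. The intron is 231 bases long in ANXA7, the shortest, and 3969 bases in ANXA3, the longest.
ANXA1, chr9:75775281-75775742, plus strand: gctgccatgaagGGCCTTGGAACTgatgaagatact
ANXA2, chr15:60649412-60653151, minus strand: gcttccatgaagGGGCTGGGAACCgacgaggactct
ANXA3, chr4:79503433-79507437, plus strand: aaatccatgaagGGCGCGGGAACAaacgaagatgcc
ANXA4, chr2:70033619-70035061, plus strand: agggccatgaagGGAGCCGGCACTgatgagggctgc
ANXA5, chr4:122602893-122604530, minus strand: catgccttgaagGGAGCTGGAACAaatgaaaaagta
ANXA6, chr5:150516859-150518250, minus strand: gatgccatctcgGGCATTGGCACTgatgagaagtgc
ANXA7, chr10:75143080-75143346, minus strand: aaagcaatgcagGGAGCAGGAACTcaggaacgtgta
ANXA10, chr4:169083781-169085372, plus strand: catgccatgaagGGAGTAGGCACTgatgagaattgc
ANXA11, chr10:81923876-81925851, minus strand: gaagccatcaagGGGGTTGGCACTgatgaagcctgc

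ANXA2 has processed copies in the genome that share its sequence, and reads of the gene and of a copy can be exchanged in counting. ANXA2P2 was identical to the coding sequence of ANXA2 at 98.4% of 1020 aligned bases, ANXA2P1 at 93.9% of 923 and ANXA2P3 at 92.3% of 1007. Of the 971 stretches of 50 bases in the ANXA2 coding sequence, 59.2% were found unaltered in ANXA2P2. The shares were 7.31% for ANXA2P1 and 0.721% for ANXA2P3, and the read length is not given in the sources used here. ANXA2P2 was at 1.78 TPM in si-NC and 13.0 TPM after FTO depletion, a 7.31-fold difference beside 7.25-fold for ANXA2. ANXA2P1 was at 0.195 and 0.118 TPM, and ANXA2P3 was listed at 0 in si-NC and had 0.00878 TPM in si-FTO. The split of reads between ANXA2 and ANXA2P2 is therefore uncertain, but the copies were far below ANXA2 in TPM in both groups. With the TPM of all 3 copies added, the log2 ratio of ANXA2 was 2.85. The same 60 bases of ANXA2 and of each copy are given on GRCh37, with bases that differ from ANXA2 in capitals, 6 in ANXA2P1, 1 in ANXA2P2 and 5 in ANXA2P3.
ANXA2, chr15:60674581-60674640, minus strand: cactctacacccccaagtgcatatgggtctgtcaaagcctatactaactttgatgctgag
ANXA2P1, chr4:154229807-154229866, minus strand: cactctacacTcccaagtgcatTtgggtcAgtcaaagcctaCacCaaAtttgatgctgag
ANXA2P2, chr9:33624320-33624379, plus strand: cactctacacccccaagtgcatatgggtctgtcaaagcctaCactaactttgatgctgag
ANXA2P3, chr10:66585377-66585436, plus strand: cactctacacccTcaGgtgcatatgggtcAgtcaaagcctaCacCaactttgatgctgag

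The promoters of the annexins were compared because 4 members were higher together. The RefSeq table on GRCh38.p14 held 14 start sites for the 10 genes, each as a window of 300 bases, among 35116 such windows. The letters TATAAA, on the strand of the gene with the T that opens them 40 to 20 bases before the start, were found in 2.30% of all windows and in those of ANXA1, ANXA2 and ANXA10. They begin 31 bases before the start of ANXA1 and of ANXA2 and 29 bases before that of ANXA10. ANXA1 and ANXA2 were higher past the fold and ANXA10 was at or next to 0, so the match went with both. ANXA3 and ANXA4, also higher, had no TATAAA on either strand in their windows.

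Other letters were sought on both strands over the whole window. TATAAA anywhere was found in 11.5% of all windows, CCAAT in 34.6%, GGGCGG in 45.0% and TGACTCA, which reads TGAGTCA on the other strand, in 4.95%. The ANXA2 window held TGAGTCA 127 bases before the start and 3 matches of GGGCGG from 78 to 68 bases before it, which overlap in 1 run. The ANXA1 window held CCAAT 77 bases before the start and, on the opposite strand, 160 bases before it. GGGCGG was also found in windows of ANXA4, ANXA5, ANXA6, ANXA7 and ANXA11, and CCAAT in windows of ANXA6, ANXA7 and ANXA11. An ANXA11 window held TATAAA 61 bases before its start. The ANXA1 and ANXA10 windows had 0 CpG, as did 3.96% of all windows, with a GC content of 37.7% and 32.7%. The ANXA2 window had a GC content of 76% and 32 CpG, against medians of 58.7% and 14 over all windows. Near these values were the ANXA5 window, with 76.3% and 36 CpG, and an ANXA11 window, with 74% and 30 CpG. The ANXA4 windows had 78% and 72%, with 44 and 27 CpG. The 130 bases before the start of ANXA1, ANXA2 and ANXA10 follow on GRCh38.p14, with the matches named above in capitals where they lie in this stretch. A match is a string of letters, and binding was not measured.
ANXA1, chr9:73151735-73151864, plus strand: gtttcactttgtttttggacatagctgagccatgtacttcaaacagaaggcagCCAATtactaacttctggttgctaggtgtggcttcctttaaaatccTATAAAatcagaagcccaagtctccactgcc
ANXA2, chr15:60397987-60398116, minus strand: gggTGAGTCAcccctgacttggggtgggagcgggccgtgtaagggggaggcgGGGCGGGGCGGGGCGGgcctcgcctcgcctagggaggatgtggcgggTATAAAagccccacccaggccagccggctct
ANXA10, chr4:168092407-168092536, plus strand: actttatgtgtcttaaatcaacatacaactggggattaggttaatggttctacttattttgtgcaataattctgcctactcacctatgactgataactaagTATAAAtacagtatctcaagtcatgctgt

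The 10 genes lie on 7 chromosomes, with ANXA3, ANXA5 and ANXA10 on chromosome 4 and ANXA7 and ANXA11 on chromosome 10. To see whether the genes around each annexin moved with it, all genes compared within 1 Mb were taken. Around ANXA3 there were 6, with a median log2 ratio of -0.86 and none above -0.63. FRAS1, the nearest, which encodes an extracellular matrix protein, was at 10.8 TPM in si-NC and 0.00303 TPM after FTO depletion. ANXA3 thus stood apart from each of its 6 neighbours in direction. Around ANXA1 there were 4, with a median of -0.28. ALDH1A1, an aldehyde dehydrogenase gene next to ANXA1, was at 3.74 TPM in si-NC and listed at 0 after FTO depletion, whereas the guanine deaminase gene GDA, farther off, was at 0.0335 and 40.4 TPM. GDA was the only neighbour with a log2 ratio above that of ANXA1, 5.32 beside 5.28.

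Around ANXA2 there were 12 genes with a median log2 ratio of 0.16, and only MYO1E, which encodes a myosin of the cell cortex, exceeded it, with a ratio of 3.67. Around ANXA4 there were 23, with a median of -0.09, and ANTXR1, which encodes a receptor of the cell surface, was the only one above ANXA4, at 1.69. The 10 genes around ANXA5 had a median of -1.42, with 6 lower past the fold and 2 above ANXA5 itself. The 22 genes around ANXA6 had a median of -0.51, close to its own -0.43, and 10 of them lay above it. The 44 genes around ANXA7, 66 around ANXA9 and 20 around ANXA11 had medians of -0.17, -0.27 and 0.03.

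**Figure D4:**
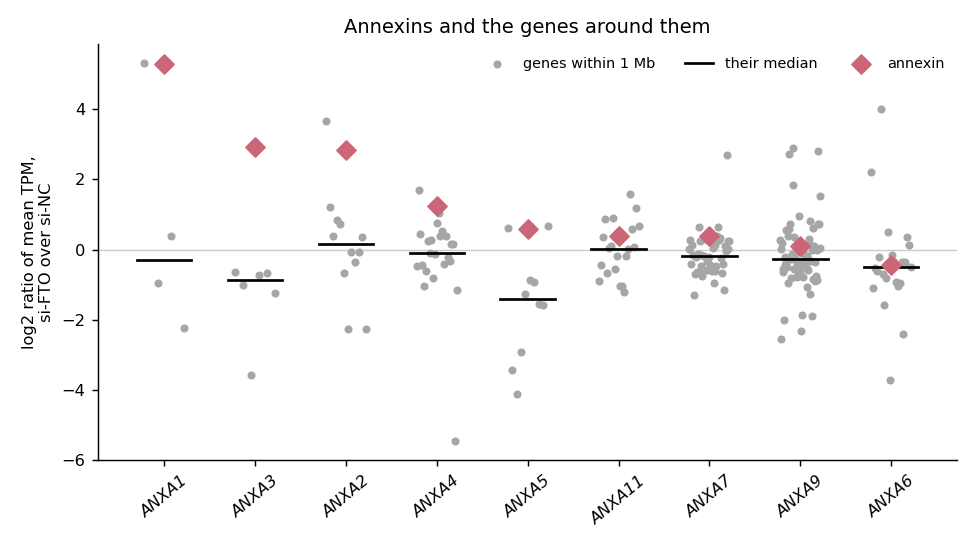
Log2 ratio of mean TPM, si-FTO over si-NC with 1 TPM added, for the 9 annexins compared (red diamonds), for each gene compared within 1 Mb (grey points) and for the median of those genes (black lines). The diamonds of ANXA1, ANXA3, ANXA2 and ANXA4 lie above all but at most 1 of the genes around them, and that of ANXA6 lies next to the median of its 22 neighbours.

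The genes of annexin partners were taken in 7 lists of 43 genes, of which 38 were compared. Of these 14 were higher past the fold (36.8%) and 5 were lower (13.2%), beside 11.4% and 17% of all genes compared, and their median log2 ratio was 0.55. S100A6, PLG and PTGS1 reached the minimum of 0.5 TPM only in si-FTO and ALOX5 only in si-NC, so these were bound to differ.

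The S100 partners, small proteins that grip the N-terminal regions of annexins, were all higher, 4 of 4, with a median log2 ratio of 5.16. S100A10, the partner of annexin A2, was at 141 TPM in si-NC and 412 TPM after FTO depletion, a log2 ratio of 1.54. The level of ANXA2 was 1.21 times that of S100A10 in si-NC and 3.0 times in si-FTO, so the excess of ANXA2 transcripts over those of its partner was larger after FTO depletion. S100A11, which binds annexin A1, was at 252 TPM in si-NC and 1525 TPM after FTO depletion, a log2 ratio of 2.59. The ANXA1 level remained far below it, at 0.0751 times S100A11 in si-FTO and 0.00780 times in si-NC. S100A6, a partner of annexins A2 and A11, was at 0.154 TPM in si-NC and 1021 TPM after FTO depletion. S100A4, which binds annexin A2, was at 3.13 TPM and 872 TPM.

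The penta-EF-hand proteins, calcium sensors that bind annexins A7 and A11, went different ways. PDCD6, the partner of annexin A11, was at 114 TPM in si-NC and 311 TPM after FTO depletion, a log2 ratio of 1.44. PEF1, which pairs with PDCD6, was at 147 TPM and 66.1 TPM, a log2 ratio of -1.14. The ANXA11 level was 0.887 times that of PDCD6 in si-NC and 0.426 times in si-FTO. SRI, which encodes sorcin, a partner of annexin A7, had a log2 ratio of 0.25, and the level of ANXA7 was 0.720 and 0.789 times its own. The median of the 4 genes of this list was -0.10. The formyl peptide receptor genes FPR1, FPR2 and FPR3, known as receptors for annexin A1, were listed at 0 in both groups.

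Annexin A2 is tied to the plasminogen system at the cell surface, and this list of 8 genes had 3 higher and 1 lower past the fold, with a median log2 ratio of 0.59. PLAU, the urokinase gene, was at 2.02 TPM in si-NC and 18.7 TPM after FTO depletion, a log2 ratio of 2.71. Its receptor gene PLAUR was at 11.9 and 33.4 TPM, a log2 ratio of 1.42. In the other direction, PLAT, the gene of the tissue activator that docks on annexin A2, was at 86.4 TPM in si-NC and 4.37 TPM after FTO depletion, a log2 ratio of -4.02. PLAT was thus the activator with the higher level in si-NC and PLAU the one with the higher level in si-FTO.

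**Figure D5:**
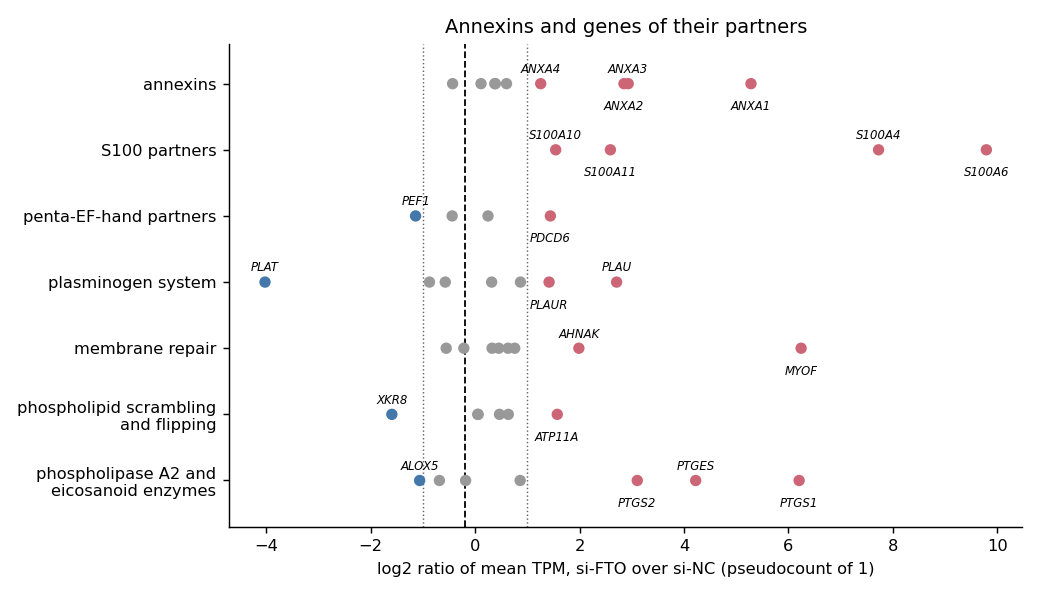
Log2 ratio of mean TPM, si-FTO over si-NC with 1 TPM added, for the 9 annexins compared and for the genes of 6 partner lists that were compared and are reported here. Red and blue points are higher and lower past the fold (dotted lines), grey points lie within it, and the dashed line is the median of all genes. The S100 partners lie from 1.54 to 9.79, and PLAT lies at -4.02.

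Annexins A1, A2, A4, A5 and A6 gather at wounds of the plasma membrane, and of 10 other genes of membrane repair 8 were compared. MYOF, which encodes myoferlin, was at 0.825 TPM in si-NC and 137 TPM after FTO depletion, a log2 ratio of 6.24. AHNAK, which encodes a giant scaffold that binds annexin A2 with S100A10, was at 22.4 and 91.6 TPM, a log2 ratio of 1.99. The other 6, the calpain genes CAPN1, CAPN2 and CAPNS1 among them, were within the fold, and the median of the list was 0.54. TRIM72 and CAV3, repair genes of muscle, were under the minimum.

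Annexin A5 binds phosphatidylserine once it is exposed, and 7 genes that move this lipid across the membrane were compared. ATP11A, a flippase gene, was at 14.0 TPM in si-NC and 43.8 TPM after FTO depletion, a log2 ratio of 1.57. The scramblase gene XKR8 was at 8.17 and 2.04 TPM, a log2 ratio of -1.59. In the list 1 gene was higher and 2 were lower past the fold, with a median of 0.06, and 4 genes, like ANXA5, lay within it.

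Annexin A1 is known to restrain cytosolic phospholipase A2, which frees arachidonic acid for the prostaglandin enzymes. PLA2G4A, the gene of the cytosolic phospholipase, was at 29.4 TPM in si-NC and 54.3 TPM after FTO depletion, a log2 ratio of 0.86, within the fold. The cyclooxygenase genes PTGS1 and PTGS2 had log2 ratios of 6.20 and 3.11, with PTGS1 at 0.151 and 83.9 TPM and PTGS2 at 0.611 and 12.9 TPM. PTGES, which encodes a prostaglandin E synthase, was at 5.91 and 128 TPM, a log2 ratio of 4.22. ALOX5, the lipoxygenase gene of the leukotriene branch, was at 1.24 and 0.0733 TPM, a log2 ratio of -1.06. In this list 3 of 7 genes were higher and 1 was lower, with a median of 0.86, while ANXA1 itself was higher past the fold.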

How the data were processed

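RNA of 3 si-NC and 3 si-FTO libraries of AGS cells was sequenced by the authors. Per the study's methods they mapped reads to hg19 with Bowtie and quantified them with RSEM, while the submitters' processing notes name HISAT2, and the gene annotation is not given in the sources used here. They deposited TPM as 1 mean per group. The deposited log2 ratios, p-values and q-values of the authors' own comparison, and a second table of genes chosen by it, were not used.

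Symbols were taken from a table of gene names, which matched 55726 of 58174 identifiers. The annexins, their partner lists and the rule for named genes (every annexin, FTO, and partner genes of at least 0.5 TPM in at least 1 group) were chosen with earlier results of these data known, and neighbours were named after their values were seen. Some genes that this rule covers are not reported here by name, and they remain in the counts and medians of their lists. Genes, coding sequences and copies were read from GRCh37 with the GENCODE annotation lifted to it, and promoters from RefSeq. Protein length and identity had been planned and were replaced by coding features. A fit over libraries could not be run on means. Python 3.11.15, numpy 2.4.6 and pandas 2.3.3 were used. The count past the fold was tested on simulated data with an assumed noise. That simulation left out genes as low as ANXA1 in si-NC. Alternatives were another pseudocount, minimum, fold threshold and reading of 0.0001 TPM, quantile normalization and median-ratio scaling.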

Additional observations from a re-analysis of the deposited data

How the results depend on the processing

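The count of annexins lower past the fold was 0 under each of the 7 other settings that could be run, and the count higher was 4, except for 3 when a log2 ratio of 2 was asked for in place of 1, where ANXA4 dropped out. The 54 alternative log2 ratios of single annexins stayed on the same side of the fold and of 0. Those under another minimum or another reading of 0.0001 TPM could not move, since neither changes the ratio of an annexin compared. Over all settings the ratios ran from 5.28 to 5.79 for ANXA1, 2.74 to 3.02 for ANXA2 and 2.93 to 3.22 for ANXA3. They ran from 1.26 to 1.42 for ANXA4 and from -0.51 to -0.26 for ANXA6. A minimum of 5 TPM left ANXA9 out. At that log2 ratio of 2, partner genes higher in si-FTO numbered 9 and lower 1, since fewer genes pass a higher threshold, and elsewhere they numbered 14 to 16 and 4 to 5. The share of all genes higher and lower was then 4.76% and 6.06%. It was 4.02% and 6.003% with no minimum, where many more low genes are counted, and 16.0% and 25.1% with a pseudocount of 0.1 TPM, both with 4 annexins higher. Without ANXA2, an alternative chosen after seeing the data, the ratio of summed annexin TPM was 1.43, by construction of that sum. Median-ratio scaling removed a shift of -0.17. No paired analysis was possible because the table holds 1 mean per group, and for the same reason leaving out each replicate was not run. Depth and the error between libraries are unknown, which limits every value, those of low genes such as ANXA1 in si-NC among them.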

Other observations

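A choice of genes named after annexins but outside the 10 members, not all such genes, was looked at after the values were seen. ANXA8, which encodes another annexin of epithelia, was at 0.0504 TPM in si-NC and 13.4 TPM after FTO depletion, a log2 ratio of 3.78. It has near-identical copies in the genome, so its level is uncertain. ANXA2R, which encodes a receptor for annexin A2, was at 1.81 TPM in si-NC and 1.85 TPM after FTO depletion. Of the RNAs annotated beside ANXA2R, ANXA2R-AS1 was at 0.534 and 13.6 TPM, a log2 ratio of 3.25, and ANXA2R-OT1 at 4.14 and 21.9 TPM, a log2 ratio of 2.16. The RNAs beside the receptor gene were thus higher past the fold in si-FTO while ANXA2R itself lay within it.

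Some genes around annexins that lay within the fold differed widely between the groups. QRFPR, which encodes a neuropeptide receptor and lies within 1 Mb of ANXA5, was at 16.4 TPM in si-NC and listed at 0 after FTO depletion. Around ANXA6, SYNPO, which encodes the actin-binding protein synaptopodin, was at 2.06 and 48.2 TPM, and GPX3, which encodes a secreted glutathione peroxidase, was at 19.96 and 0.581 TPM. PLAU, counted in the plasminogen list, lies within 1 Mb of ANXA7 and had the largest log2 ratio of the 44 genes there, 2.71.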
